A study of Homo sapiens with 4 samples.

Results

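Transcripts of p53 target genes and of apoptosis regulators were followed in MKN45, an established line of gastric epithelial cells from a human adenocarcinoma, after exposure to Helicobacter pylori lipopolysaccharide (LPS), the outer-membrane glycolipid of this stomach bacterium. The set was given as 29 gene symbols: well-known p53 targets, the death receptors, and the proteins that pass on or block the death signal. A member was measured by probe sets that the platform annotation assigned to its symbol alone, and where there were several, by the brightest one, judged on the mean of the 4 arrays. This gave 26 measured members among 19775 genes with such a probe set, and all 26 lay above the level filter of 6.06 (log2) and were tested. BBC3 had only a probe set shared with microRNA genes, and it, BTG2 and FDXR were not analysed here. Nothing in the choice of probe set used the difference between the groups.

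The untreated group consisted of 2 arrays of cells in fresh medium and the LPS group of 2 arrays of cells in medium with 10 µg/ml LPS, both harvested at 8 h. The series text describes 2 independent experiments in this 1 line, so p-values and intervals measure the spread between these arrays only. Epithelial markers were all well above the filter (8 of 8, log2 levels from 9.49 to 14.64, with keratin KRT18 the highest value). Of the 6 leukocyte markers with a probe set, PTPRC and CD14 lay under the filter and LYZ, CD53, CD3E and ITGAM above it, up to 12.74 for LYZ; LYZ differed by -0.15 and CD53 by 0.33 (LPS minus untreated, log2), each at an unadjusted p under 0.05 in limma and neither passing after adjustment. All 8 fibroblast and endothelial markers lay above the filter, up to 9.21 for COL1A1. Summed on the linear scale, the leukocyte markers gave 7427 and 7854 untreated and 7057 and 7075 with LPS, and the fibroblast and endothelial markers 1530 and 1651 against 1698 and 1659. LYZ, by far the brightest of the 6, made up most of the leukocyte sum and set its direction. Of the other leukocyte markers, CD53 was higher on both LPS arrays, PTPRC was lower on both, and CD3E, CD14 and ITGAM overlapped. Both sums separated the groups, and their part in the values below was not tested. Arrays correlated at r = 0.996 to 0.998 across probe sets, which are not independent replicates. Poly-A spike-ins, added to the RNA before labelling, separated the groups on 24 of 24 probe sets, with LPS arrays the lower ones, by 0.48 on the log2 scale on average, and the part of this gap was likewise not tested. Precision is limited by having 4 arrays.

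The transcription factor p53 is held low by MDM2, an E3 ligase that is itself a p53 target, and when released by DNA damage or other stress it induces inhibitors of the cell cycle, repair genes and genes of cell death. Apoptosis runs along an intrinsic route, in which BCL2 family proteins decide whether mitochondria release cytochrome c, and an extrinsic route, in which FAS or the TRAIL receptors recruit CASP8. NF-kB, which LPS activates through Toll-like receptors, is known to induce survival genes such as CFLAR, BCL2L1 and GADD45B, so both programmes meet on this set.

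RefSeq promoter windows (GRCh38.p14, 250 bases before to 50 after a transcript start) were found for 21 of the 29 symbols, 41 windows in all, since genes can have several starts. They were searched for the p53 response element, here adjoining p53 decamers, 2 motifs of 10 bases each, with the C and G of the core CNNG kept in both and at most 3 mismatches over the 20 bases, a limit set with known elements in mind. The pair reads the same on both strands. It was present in windows of 7 of the 21 genes (8 of 41 windows), against 1.12% of the 35116 windows of all genes. The list was put together from known p53 targets, so this share describes how it was made. The pairs of the 6 measured genes are shown because they match the p53 response element as defined here, with the core of each decamer in capitals. They are letters that match, and binding of p53 was not measured.

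DDB2 (chr11:47214969-47214988, + strand): aagCTGGtttgaaCAAGccc
AEN (chr15:88621306-88621325, + strand): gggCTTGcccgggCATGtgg
MDM2 (chr12:68808923-68808942, + strand): ggtCAAGttcagaCACGttc
FAS (chr10:88991309-88991328, + strand): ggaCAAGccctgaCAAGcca
SESN1 (chr6:109009018-109009037, - strand): ggaCAAGtctccaCAAGtca
PMAIP1 (chr18:59899811-59899830, + strand): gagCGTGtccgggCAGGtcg

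The pair in DDB2 had 1 mismatch to the consensus, those in AEN, MDM2 and FAS 2, and those in SESN1 and PMAIP1 3. The same DDB2 window held 2 decamers without a mismatch, beginning 5 and 16 bases from its start. They do not adjoin, and the search allowed no gap, so it did not pair them. The printed DDB2 pair joins the first of them to an upstream decamer that has the mismatch. The MDM2, FAS and SESN1 pairs lie before a start inside each gene, downstream of its first start. The DDB2 pair spans such a start. For MDM2 and FAS, the 250 bases upstream of an inner start are printed with all matches in capitals.

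MDM2 (chr12:68808767-68809016, + strand): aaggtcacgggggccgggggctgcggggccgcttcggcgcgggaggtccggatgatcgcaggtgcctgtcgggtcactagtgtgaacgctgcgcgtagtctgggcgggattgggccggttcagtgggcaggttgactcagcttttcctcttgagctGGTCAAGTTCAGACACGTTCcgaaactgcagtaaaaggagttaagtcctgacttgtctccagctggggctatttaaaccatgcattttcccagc
FAS (chr10:88991181-88991430, + strand): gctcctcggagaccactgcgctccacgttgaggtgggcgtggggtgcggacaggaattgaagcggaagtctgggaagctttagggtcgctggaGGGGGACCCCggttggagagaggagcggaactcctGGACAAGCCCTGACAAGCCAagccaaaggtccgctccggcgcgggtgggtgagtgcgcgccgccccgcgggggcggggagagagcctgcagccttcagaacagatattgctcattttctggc

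The window of FAS held the p53 pair and, nearer its 5′ end, a match to the kappa B consensus of NF-kB (10 bases, beginning GGG and ending CC, searched on both strands). Such kappa B matches stood in windows of 4 of the 21 genes (4 of 41 windows) and in 11.3% of all windows. The matches of the measured members are given because LPS signals through NF-kB, and they are descriptions of letters, not of bound sites. Each is printed as the gene's strand reads; the second of GADD45B matches on the opposite strand.

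CFLAR (chr2:201118619-201118628, + strand): GGGGAATTCC
GADD45B (chr19:2475964-2475973, + strand): GGGGCGCCCC
GADD45B (chr19:2476112-2476121, + strand): GGAGGCTCCC
FAS (chr10:88991274-88991283, + strand): GGGGGACCCC
ZMAT3 (chr3:179072026-179072035, - strand): GGGACCCTCC

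None of the measured genes with a p53 pair or a kappa B match passed the test between the groups, and FDXR, which also has a pair, was not tested. CDKN1A, the member with the highest difference, had neither in its window, which does not reach the distal elements that p53 is known to use at this gene.

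LPS and untreated arrays were compared to ask whether these transcripts had moved at 8 h. No member passed limma at a Benjamini-Hochberg adjusted p under 0.05 over 16252 genes (0 of 26), and 4 of those 16252 genes, or 0.0246%, did. At an unadjusted p under 0.05 in limma, 2 members were higher, CDKN1A and MCL1, against 3.72% of all genes, and 1 was lower, TNFRSF10A, against 7.91%. With limma's variance model fitted over 1 probe set per gene instead of all probe sets, 10 of all genes (5 higher, 5 lower) and 0 members passed, and 4 members rather than 1 were lower at an unadjusted p under 0.05. Both LPS arrays lay above both untreated arrays for 6 of 26 members (19.7% of all genes) and below them for 10 of 26 (25.7% of all genes). The differences of the members, LPS minus untreated on the log2 scale, ran from -0.23 for PMAIP1 to 0.30 for CDKN1A, with a median of 0.0065 against -0.0047 over all genes tested, and 13 were above 0 (48.2% of all genes) and 13 below (51.8%). With 2 arrays against 2, an exact permutation test of a single gene cannot go below p = 0.333 (two-sided), so the moderated limma test, with 7.06 degrees of freedom, is the one given throughout. In the plot of members by array, the members' arrays mix in 10 of 26 rows, and each role group holds members on both sides of 0.

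**Figure D1:**
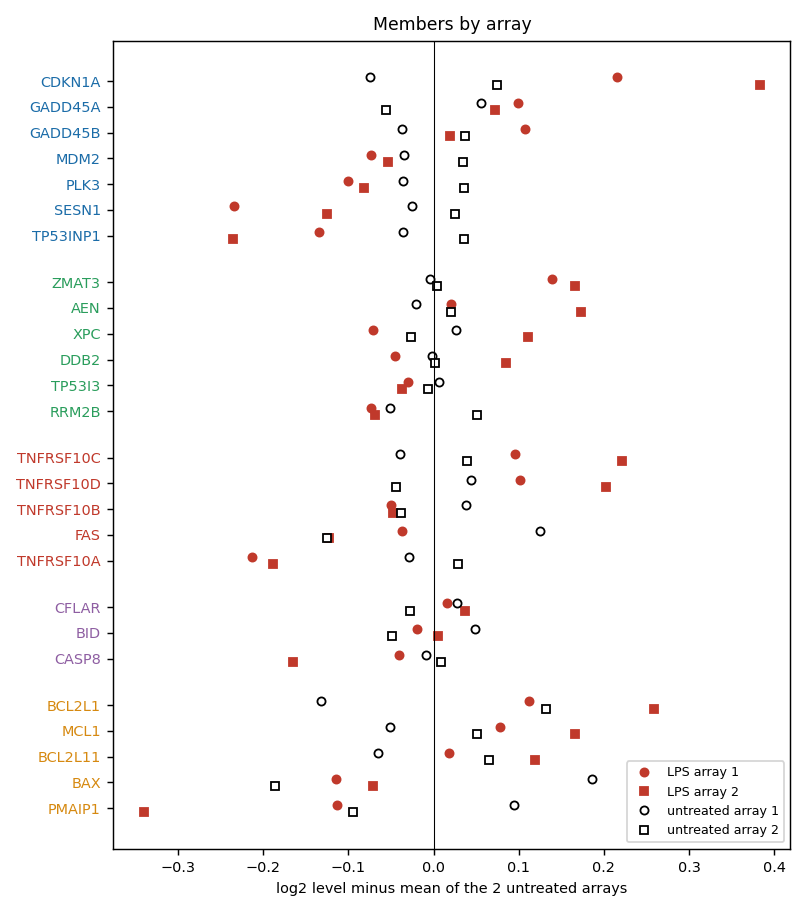
Log2 level of each measured member on each array, minus the mean of the 2 untreated arrays (x axis), with open symbols for untreated and filled red symbols for LPS arrays, circles for replicate 1 and squares for replicate 2. Both red symbols lie to the right of both open ones for 6 members and to the left for 10, and CDKN1A reaches farthest to the right.

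Among the genes of growth arrest and p53 feedback, CDKN1A had the highest difference. CDKN1A encodes p21, the inhibitor of cyclin-dependent kinases that carries out p53-dependent arrest, and its level was 10.85 and 11.00 untreated and 11.14 and 11.31 with LPS. The groups did not overlap, and LPS was also the higher within each replicate number. The fitted ratio was 1.23 (95% interval 1.08 to 1.41; limma unadjusted p = 0.00807, adjusted p = 0.327), which did not pass. Without LPS replicate 2 the unadjusted limma p was 0.0847. With 1 array left out, the difference ran from 0.21, in that fit, to 0.38. With the replicate block the unadjusted limma p was 0.000975 and the adjusted p 0.176, again not passed. All of these values rested on the single CDKN1A probe set.

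MDM2, the p53 antagonist, lay at 11.75 and 11.82 in untreated and at 11.71 and 11.74 in LPS-treated cells. The LPS arrays were both the lower ones, by a narrow margin (difference -0.06, interval -0.19 to 0.06). MDM2 had 10 probe sets, of which 7 were lower with LPS and 3 higher. On 4 of the 10, both LPS arrays lay below both untreated arrays, against 21.1% of all probe sets. The second brightest of them read 11.44 and 11.31 against 11.18 and 11.06, a difference of -0.26 (limma unadjusted p = 0.00792 in the fit over all probe sets, not passed). On the probe sets chosen here, MDM2 lay below 0, with an interval that includes 0, and CDKN1A above it. Neither passed, and the difference between them was not tested.

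TP53INP1, a stress-induced nuclear protein that promotes p53 activity and autophagy, had the lowest difference of this group, with 8.18 and 8.25 untreated and 8.08 and 7.98 with LPS. Both LPS arrays were lower (difference -0.19, interval -0.37 to 0.0047), while its other 2 probe sets were higher, by 0.09 and 0.08. SESN1, a sestrin that restrains mTORC1, was close to it at 8.66 and 8.71 against 8.45 and 8.56 (difference -0.18, interval -0.37 to 0.0088), again with separate groups, on its only probe set. The polo-like kinase PLK3 differed by -0.09, with the groups separate, and its 2 dimmer probe sets by 0.02 and 0.0013. The stress sensors GADD45A and GADD45B, which bind PCNA and upstream kinases of p38 and JNK, differed by 0.09 and 0.06; all 4 probe sets of GADD45B, which NF-kB can also induce, were higher, from 0.02 to 0.13, but the arrays overlapped on 3 of them. Of the 7 measured genes of this group, 3 were above and 4 below 0, and 0 passed in limma. At an unadjusted p under 0.05 in limma, 1 was higher (3.72% of all genes) and 0 lower (7.91%).

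**Figure D2:**
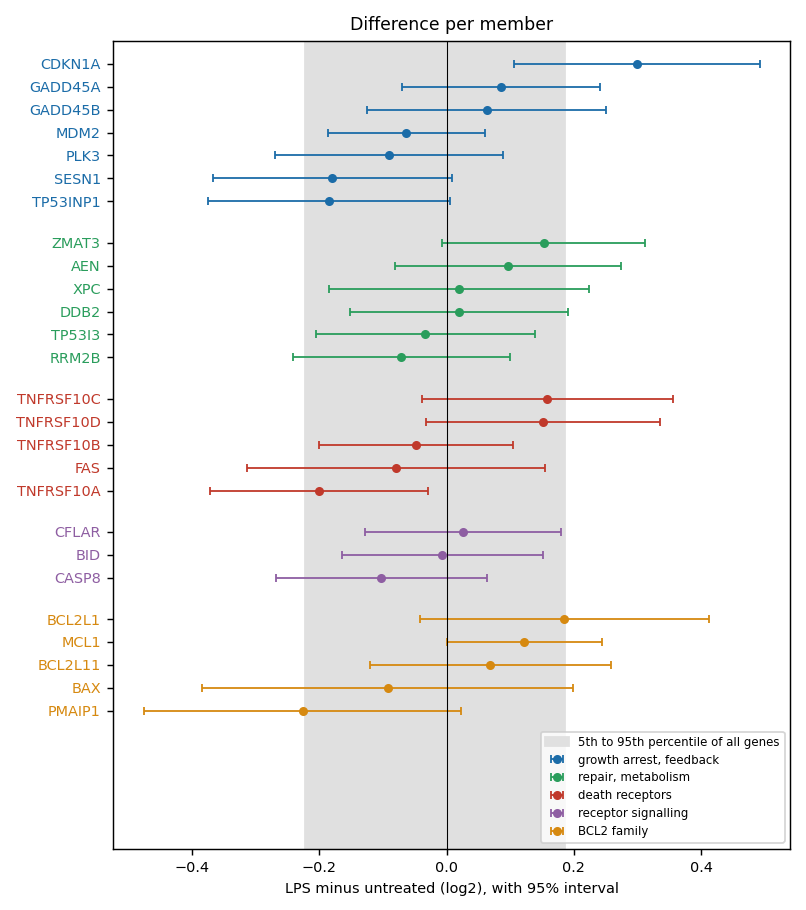
Difference of each measured member (x axis, LPS minus untreated, log2) as a point with its 95% interval from limma, coloured by role; the grey band spans the 5th to 95th percentile of the differences of all 16252 genes (-0.22 to 0.19). The intervals of CDKN1A, MCL1 and TNFRSF10A leave out 0, and most points lie inside the band.

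Genes of DNA repair, nucleotide supply and redox metabolism differed by -0.07 to 0.15. ZMAT3, an RNA-binding zinc finger protein induced by p53, was the highest, with 9.76 and 9.77 in untreated cells and 9.90 and 9.93 with LPS. The groups were clearly separate on this probe set (difference 0.15, interval -0.0066 to 0.31), but on the second brightest, at 9.90 and 9.84 against 9.76 and 9.72, they were separate in the opposite direction (difference -0.13). The remaining 3 ZMAT3 probe sets differed by -0.0064 to 0.15. RRM2B, the p53-inducible subunit of ribonucleotide reductase, was the lowest of the group at 9.82 and 9.93 untreated and 9.80 and 9.81 with LPS. Its difference of -0.07 (interval -0.24 to 0.10) was smaller than the gap between the 2 untreated arrays.

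The nucleotide excision repair genes XPC and DDB2 each differed by 0.02, with intervals of -0.18 to 0.22 and -0.15 to 0.19. The sign of XPC turned without untreated replicate 2 (-0.0068) and without LPS replicate 2 (-0.07), and that of DDB2 without LPS replicate 2 (-0.05). AEN, an apoptosis-enhancing nuclease, differed by 0.10 (interval -0.08 to 0.27), and the quinone oxidoreductase TP53I3 by -0.03 (interval -0.21 to 0.14). In all, 4 of these 6 genes were above 0 and 2 below, and 0 passed in limma or reached an unadjusted p under 0.05.

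No death receptor passed the test between the groups. FAS and the TRAIL receptors TNFRSF10A and TNFRSF10B carry a death domain and signal for apoptosis, whereas TNFRSF10C lacks a death domain and TNFRSF10D has a truncated one, so both of these bind TRAIL as decoys. On their brightest probe sets the 3 signalling receptors lay below 0 and the 2 decoys above, with separate groups for all 4 TRAIL receptors, 2 higher (19.7% of all genes) and 2 lower (25.7%). These signs depended on the probe set and the array: TNFRSF10B was above 0 with mean probe sets, TNFRSF10C below 0 without _x_at and _s_at probe sets, and FAS above 0 without untreated replicate 1. None passed in limma (0 of 5). At an unadjusted p under 0.05 in limma, 0 were higher (3.72% of all genes) and 1 lower (7.91%). The median difference was -0.05, and no difference between receptor types was tested.

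TNFRSF10A, also called DR4, read 9.42 and 9.48 in untreated and 9.24 and 9.26 in LPS-treated cells. Its arrays lay well apart relative to the spread within each group, and the ratio was 0.870 (95% interval 0.773 to 0.979; limma unadjusted p = 0.0272, adjusted p = 0.385). The unadjusted limma p was 0.0727 after quantile normalization, 0.0663 after cyclic loess and 0.339 with mean probe sets. Leaving out untreated replicate 2 gave 0.0777, and leaving out the first or the second LPS array gave 0.143 or 0.105. The next probe set was lower by less (-0.07, both LPS arrays lower) and the third was higher (0.08, overlapping). TNFRSF10B, or DR5, a direct p53 target, read 10.58 and 10.51 against 10.49 and 10.50. The LPS arrays were lower only marginally (difference -0.05, interval -0.20 to 0.10), and the other 3 probe sets of TNFRSF10B were higher, by 0.19, 0.23 and 0.11. The mean over its probe sets was therefore higher with LPS (0.12).

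TNFRSF10C, known as DcR1, read 7.51 and 7.58 in untreated and 7.64 and 7.77 in LPS-treated cells. Both LPS arrays were higher (difference 0.16, interval -0.04 to 0.36), on a probe set of the cross-hybridising _x_at kind, while its other 3 differed by -0.01, 0.0063 and 0.12. TNFRSF10D, known as DcR2, read 9.47 and 9.38 against 9.53 and 9.63. It was higher on both LPS arrays (difference 0.15, interval -0.03 to 0.34), and its second probe set differed by 0.10 in the same direction. In the RefSeq gene table the 4 TRAIL receptor genes follow one another with 0 other protein-coding genes between neighbours. Their order is TNFRSF10B, TNFRSF10C, TNFRSF10D, TNFRSF10A. On the brightest probe sets, members of this cluster lay on both sides of 0. TNFRSF10A, TNFRSF10B and TNFRSF10C each also had a probe set of the other sign, and none of the differences passed.

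FAS read 9.61 and 9.36 in untreated and 9.45 and 9.36 in LPS-treated cells. Its groups overlapped and the untreated arrays differed from each other by more than the groups did (difference -0.08, interval -0.31 to 0.15). Without untreated replicate 1 the sign of FAS turned (0.05). Of its 5 probe sets 3 were lower and 2 higher, and on none were the groups separate.

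Behind the receptors, CASP8 is the initiator caspase, CFLAR encodes the c-FLIP proteins that block its activation, and BID is cut by CASP8 and carries the signal to mitochondria. CASP8 was the lowest of the 3, with 10.52 and 10.53 untreated and 10.48 and 10.36 with LPS. Both LPS arrays were lower (difference -0.10, interval -0.27 to 0.06), and the other 2 probe sets of CASP8 differed by -0.09 and 0.02 with overlapping groups. CFLAR was the highest, at 10.32 and 10.27 against 10.31 and 10.33, a difference of 0.03 (interval -0.13 to 0.18) with overlapping groups. Its 14 probe sets, more than for any other member, gave a different sign from the brightest in 10 cases: 10 were lower and 4 higher, from -0.20 to 0.09. Both LPS arrays were lower on 5 of the 14 (21.1% of all probe sets) and higher on 1 (19.5%). The sign of CFLAR also turned without untreated replicate 2 (-0.0011).

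BID lay at 10.58 and 10.49 in untreated and 10.52 and 10.54 in LPS-treated cells, a difference of -0.0070 (interval -0.16 to 0.15) that became 0.04 after quantile normalization or cyclic loess. It was also above 0 without untreated replicate 1 (0.04) and without LPS replicate 1 (0.0058). Its other 2 probe sets were lower, by 0.08 and 0.20 on the log2 scale. CFLAR and CASP8 are near neighbours in the genome, with only CASP10 between them among protein-coding genes, and CASP10 differed by 0.03. None of the 3 signalling members passed in limma, and 0 reached an unadjusted p under 0.05.

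**Figure D3:**
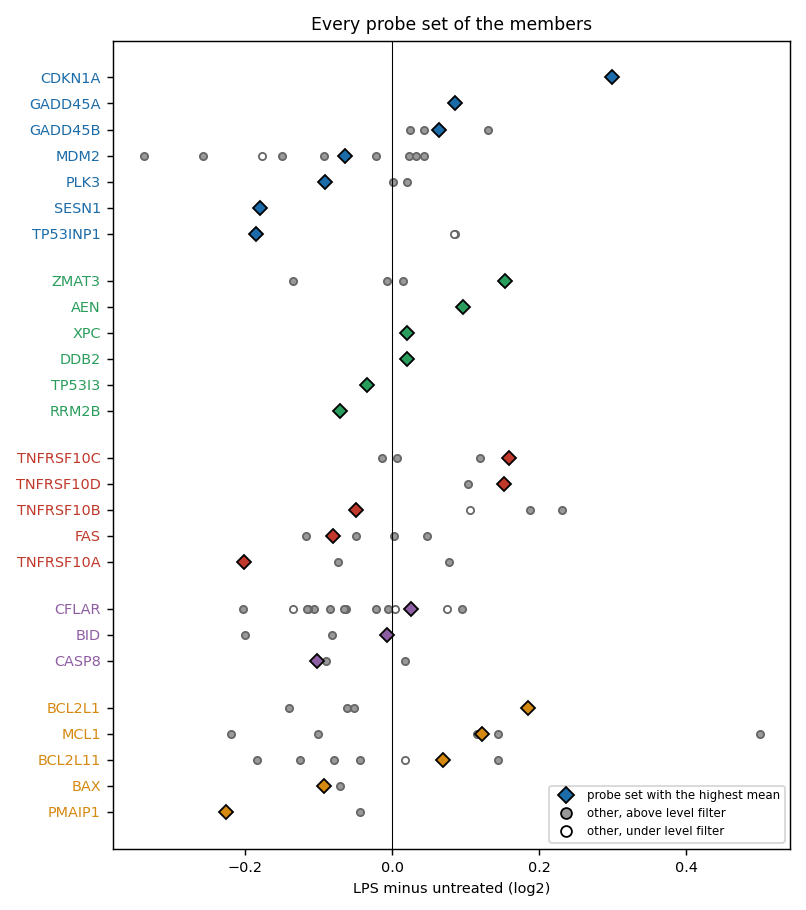
Difference (x axis, LPS minus untreated, log2) of all 92 probe sets of the 26 members, with diamonds for the probe set with the highest mean, grey circles for others above the level filter and white circles for others under it. Probe sets of 13 members lie on both sides of 0, and the farthest point is an MCL1 probe set at 0.50 whose arrays overlap.

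In the BCL2 family, the survival genes BCL2L1 and MCL1 and the death gene BCL2L11 lay above 0 and the death genes PMAIP1 and BAX below 0 on their brightest probe sets, and no difference between survival and death genes was tested. MCL1, a short-lived protein that sequesters BH3-only proteins, read 12.81 and 12.92 untreated and 12.94 and 13.03 with LPS. Both LPS arrays were higher by a little, 1.09-fold (95% interval 1.00 to 1.18; limma unadjusted p = 0.0497, adjusted p = 0.427), which did not pass. Its unadjusted limma p ran from 0.0098 without untreated replicate 2 to 0.357 with mean probe sets, and without _x_at and _s_at probe sets its sign turned (-0.22). The second brightest MCL1 probe set was also higher (0.14, groups separate), 2 others differed by 0.50 and 0.12 with overlapping groups, and 2 were lower, by 0.22 and 0.10 on the log2 scale.

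BCL2L1, which encodes BCL-XL, had the highest difference of the family, from 11.11 and 11.38 untreated to 11.36 and 11.50 with LPS. The groups overlapped because untreated replicate 2 exceeded LPS replicate 1 (difference 0.19, interval -0.04 to 0.41), and the other 3 probe sets of BCL2L1 were lower, from -0.14 to -0.05. PMAIP1, the BH3-only protein NOXA that neutralises MCL1, had the lowest difference of all members, from 9.52 and 9.33 untreated to 9.31 and 9.09 with LPS. Both LPS arrays were lower, but LPS replicate 1 was within 0.02 of untreated replicate 2 (ratio 0.855, 95% interval 0.719 to 1.02; limma unadjusted p = 0.0688, adjusted p = 0.448). The second PMAIP1 probe set differed by -0.04 with overlapping groups.

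BAX, the pore-forming executioner and a p53 target, differed by -0.09 with a wide interval (-0.38 to 0.20), since its untreated arrays read 9.02 and 8.65. Without untreated replicate 1 its sign turned (0.09). BCL2L11, the BH3-only protein BIM, differed by 0.07 on its brightest probe set, while its 7 probe sets ran from -0.18 to 0.14, with 3 higher and 4 lower. Of the 5 measured family members, 3 were above and 2 below 0, and 0 passed in limma. At an unadjusted p under 0.05 in limma, 1 was higher (3.72% of all genes) and 0 lower (7.91%).

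The choice of probe set mattered for many members. The 26 members had 92 probe sets, of which 85 were above the level filter, and among the 18 members with several, 13 had probe sets of both signs. Over the 92, 43 were above and 49 below 0, with both LPS arrays higher on 12 (19.5% of all 54613 probe sets) and lower on 24 (21.1%). None passed in limma over all probe sets (0 of 92, against 0.00549%), and at an unadjusted p under 0.05, 2 were higher (3.66% of all) and 3 lower (6.42%). Those 3 lower ones were 2 of MDM2 and 1 of TNFRSF10A, and the 2 higher ones belonged to CDKN1A and ZMAT3. The brightest probe sets of ZMAT3 and MCL1 changed sides of 0.05 between the fits. For ZMAT3 the unadjusted limma p was 0.0491 with no filter and 0.0577 with it, and for MCL1 0.0549 and 0.0497. The smallest adjusted p among the 92 was 0.355.

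Other genes of the same pathways gave a like picture. Of 99 listed, 92 had a probe set, 88 lay above the level filter and were tested, and 0 passed in limma; 4 higher genes (3.72% of all) and 7 lower ones (7.91% of all) reached an unadjusted p under 0.05. Their median difference was -0.02, with 38 above 0 (48.2% of all genes) and 50 below (51.8%). Among further p53 targets, the cyclin CCNG1 was at 12.39 and 12.19 untreated and 12.04 and 12.03 with LPS (difference -0.26), and the antiproliferative gene BTG1 at 10.45 and 10.36 against 10.12 and 9.99 (difference -0.35). The groups were separate for both. RPS27L, a ribosomal protein-like p53 target, differed by -0.16, the cyclin CCNG2 by -0.20 and the peroxidase GPX1 by -0.15. In the other direction, the adaptor TRAF4 went from 8.87 and 8.78 to 9.16 and 9.23 (difference 0.37), TP53AIP1, a mitochondrial p53 target, differed by 0.25 and the stress cytokine GDF15 by 0.15.

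These 8 were the further p53 targets at an unadjusted p under 0.05 out of 41 tested. Of them 3 were higher (3.72% of all genes) and 5 lower (7.91%), with limma adjusted p-values of 0.267 to 0.421. Among core p53 regulators the damage kinase ATR differed by -0.26 (limma adjusted p = 0.335). Of the 7 tested, 6 lay below 0 (51.8% of all genes), but the arrays of 4 overlapped. Only ATR reached an unadjusted p under 0.05 in limma. In the rest of the BCL2 family, BAK1, the partner of BAX in forming pores, differed by 0.20 and BCL2L14 by -0.37. No caspase or apoptosome gene (10 tested), inhibitor of apoptosis (5 tested) or death ligand or adaptor gene (15 tested) reached an unadjusted p under 0.05. The death ligands TNFSF10, which encodes TRAIL, and FASLG both lay under the level filter.

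**Figure D4:**
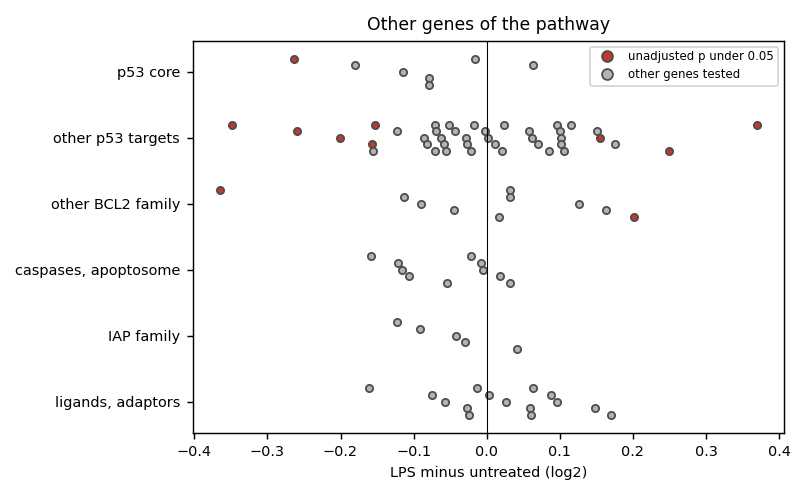
Difference (x axis, LPS minus untreated, log2) of the 88 tested genes of the same pathways that are not in the set of 29, by list, each point a gene; red points have an unadjusted p under 0.05 in limma. The red points lie on both sides of 0, 4 to the right and 7 to the left.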

How the data were processed

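Total RNA of MKN45 cells was labelled with biotin and hybridised to Affymetrix arrays, 2 of untreated and 2 of LPS-treated cells, grouped by their titles. The authors deposited log2 levels per probe set, as judged from the values; MAS5 and RMA are named in the submitters' processing notes, and which of them made the values is not given in the sources used here. The sorted values of the arrays differed by no more than 0.0977 at any rank, so a shift of all transcripts in 1 direction would not be seen.

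Of 54675 probe sets, 62 controls were left out. Of the other 54613, 41091 had 1 gene symbol in the platform annotation, 1801 several and 11721 none, and 41037 matched the RefSeq table (GRCh38.p14) by Entrez identifier, with 0 symbols changed. Probe sets with a mean under the 30th percentile (6.06) were left out. Differences were fitted with limma 3.58.1 in R 4.3.3 (lmFit, eBayes with trend, two-sided, no block) on all probe sets above the filter; p-values of the brightest probe set of each of 16252 genes were adjusted by Benjamini-Hochberg, with a threshold of 0.05. Values for further probe sets come from the same fit with no filter. Intervals are 95% intervals. The procedure was tested on simulated data. Whether the variance model runs over all probe sets or over 1 per gene had not been fixed beforehand: both were run, the version over 1 per gene first, and the one over all probe sets, as an earlier analysis of these data had used, was taken after the counts under both had been seen.

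The members, lists and tests were chosen with earlier results of these data known, and the promoter search after the values were seen, with its limit of 3 mismatches set so that known elements such as those of MDM2 would be found. Genes described in full were the death receptors, CDKN1A, MDM2, members at an unadjusted p under 0.05, and the highest and lowest of each role group; of other pathway genes, those at an unadjusted p under 0.05 were named, at most 6 in each direction; GPX1 was named beyond this limit after its values were seen, and 1 gene of the rule is not reported here. Alternatives were other filters, normalizations, variance models and probe set rules, a replicate block, and leaving out each array.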

Additional observations from a re-analysis of the deposited data

How the results depend on the processing

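No member passed in limma under any alternative tried, with 0 of 26 at an adjusted p under 0.1 and as the smallest adjusted p 0.114 to 0.964 with 1 array left out; 20 of the 26 could be tested without _x_at and _s_at probe sets. The count over all genes was 4, but 5 after median centring, 6 with mean probe sets (4 higher and 2 lower), 7 with the replicate block and 10 (5 higher and 5 lower) with the variance model over 1 probe set per gene, which was run first and became the alternative after seeing the data; it was 3 to 5 with 1 array left out. Members higher at an unadjusted p under 0.05 numbered 2, but 5 after quantile normalization, 4 after cyclic loess or with the replicate block, 1 after median centring, without trend, with mean probe sets or without _x_at and _s_at, and 0 to 3 with 1 array left out. Members lower numbered 1 (TNFRSF10A), but 0 after quantile normalization or cyclic loess, 2 after median centring or without trend, 3 with the replicate block, 4 with the variance model over 1 probe set per gene, and 0 to 3 with 1 array left out. The same replicate numbers deviated together at r = 0.103 in 2 pairs, too few to settle a pairing, and the block changed no member's call.

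The median member difference of 0.0065 became 0.055 after quantile normalization, 0.052 after cyclic loess, -0.0077 after median centring, -0.020 with mean probe sets, -0.031 without _x_at and _s_at, and -0.034 to 0.034 with 1 array left out; the death receptor median of -0.05 became 0.068 with mean probe sets and -0.086 to 0.045 with 1 array left out. With mean probe sets the sign turned for BCL2L1 (-0.017), BCL2L11 (-0.029), CFLAR (-0.051) and TNFRSF10B (0.12). Without _x_at and _s_at it turned for CASP8 (0.017), CFLAR (-0.20), MCL1 (-0.22) and TNFRSF10C (-0.013). BID became 0.043 after quantile normalization and 0.041 after cyclic loess. With 1 array left out, BAX ran from -0.28 to 0.093, BID from -0.056 to 0.042, CFLAR from -0.0011 to 0.053, DDB2 from -0.045 to 0.085, FAS from -0.21 to 0.045 and XPC from -0.070 to 0.11. Such fits take the spread of the lone array from the complete group. The causes were not tested. The remaining 14 members kept their sign under every alternative in which they could be tested.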
